A study of Mus musculus with 6 samples.

Results

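Small nucleolar RNAs are short noncoding RNAs of the nucleolus, and their close relatives, the small Cajal body RNAs, reside in another nuclear compartment, the Cajal body. They were taken from a gene count table of EO771 cells, a mouse mammary carcinoma line, as the symbols that begin with Snord, Snora or Scarna followed by a number and whose counts summed to 60 or more over the 6 libraries. Of 142 symbols with such names, 122 had at least 1 count, 30 of these fell short of the sum, and 92 were kept, out of 49523 symbols in the table. The 92 were 55 box C/D RNAs (Snord), 33 box H/ACA RNAs (Snora) and 4 Cajal body RNAs (Scarna). The groups were 3 libraries labelled cancer stem cells (CSC) and 3 labelled non-CSC, all of the EO771 line, with no treatment, time or genotype given in the labels. No label explains the isolation of the CSC or ties a replicate to its own culture, so p-values measure the spread between these libraries only. The study was designed to compare gene expression between the 2 populations. Levels are CPM, a gene's counts relative to its library's TMM-scaled total. In bulk libraries a lower level in every cell and fewer cells with the RNA cannot be told apart. Fold changes are CSC over non-CSC throughout, and a gene was called when its adjusted p in edgeR's quasi-likelihood test fell below 0.05.

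Box C/D RNAs pair with ribosomal RNA and direct the methylation of the ribose at the paired base. Box H/ACA RNAs direct the conversion of uridine to pseudouridine, and a few members of either family instead take part in cutting the ribosomal RNA precursor. Cajal body RNAs do the same for the small nuclear RNAs of the spliceosome. In mammals nearly all of them lie inside introns of other genes, the host genes, and are released when the intron is spliced out and trimmed. Fibrillarin and its partners protect the C/D RNAs, and dyskerin and its partners the H/ACA RNAs.

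The sequences below are those on which the results turn, as given by the GENCODE M21 transcripts of GRCm38, read 5′ to 3′ on the strand of the RNA. In the box C/D RNAs the capitals mark the C box (TGATGA within the first 25 bases) and the D box (CTGA within the last 25 bases). Snord14c, Snord14d and Snord14e (chr9:40803583-40803668, chr9:40803995-40804080 and chr9:40804748-40804837, all on the plus strand) are copies within Hspa8 and rose together. Snord11 (chr1:59704790-59704873, plus strand) had the lowest adjusted p of all members. Snord99 (chr4:132310691-132310764, plus strand) lies in Snhg12, and Snord118 (chr11:69073427-69073561, plus strand) was the only C/D member called lower.
Snord14c: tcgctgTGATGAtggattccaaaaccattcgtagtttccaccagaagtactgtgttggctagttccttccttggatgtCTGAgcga
Snord14d: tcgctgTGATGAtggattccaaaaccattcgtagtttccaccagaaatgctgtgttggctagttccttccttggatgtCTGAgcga
Snord14e: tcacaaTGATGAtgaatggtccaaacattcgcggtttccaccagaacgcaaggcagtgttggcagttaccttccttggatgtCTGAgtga
Snord11: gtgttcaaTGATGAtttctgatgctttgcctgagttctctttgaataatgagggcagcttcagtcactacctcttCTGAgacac
Snord99: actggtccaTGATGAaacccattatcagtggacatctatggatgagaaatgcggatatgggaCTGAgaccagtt
Snord118: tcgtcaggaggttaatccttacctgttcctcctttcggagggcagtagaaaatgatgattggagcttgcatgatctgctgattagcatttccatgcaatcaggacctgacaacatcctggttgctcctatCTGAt

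For the box H/ACA RNAs the capitals mark the H box (ANANNA, the match nearest the middle between positions 41 and 91) and the ACA in the last 8 bases. Snora16a, Snora44 and Snora61 (chr4:132309465-132309600, chr4:132309941-132310069 and chr4:132310240-132310369, all on the plus strand) share the host Snhg12 with Snord99. Snora28 (chr12:111540941-111541067, plus strand) showed the largest fall of any member. Snora73a and Snora73b (chr4:132352775-132352979 and chr4:132352322-132352526, both on the minus strand) are near-identical copies among the most abundant members.
Snora16a: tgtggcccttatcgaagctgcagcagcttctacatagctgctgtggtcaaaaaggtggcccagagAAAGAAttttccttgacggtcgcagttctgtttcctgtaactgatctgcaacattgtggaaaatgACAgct
Snora44: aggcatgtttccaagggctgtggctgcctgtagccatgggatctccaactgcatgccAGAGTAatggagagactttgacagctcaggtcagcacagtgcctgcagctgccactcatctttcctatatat
Snora61: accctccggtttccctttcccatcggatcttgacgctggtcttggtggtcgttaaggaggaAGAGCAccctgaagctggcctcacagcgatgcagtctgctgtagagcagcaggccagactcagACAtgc
Snora28: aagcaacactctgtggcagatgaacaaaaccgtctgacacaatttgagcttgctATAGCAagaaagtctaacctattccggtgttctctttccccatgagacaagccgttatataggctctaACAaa
Snora73a: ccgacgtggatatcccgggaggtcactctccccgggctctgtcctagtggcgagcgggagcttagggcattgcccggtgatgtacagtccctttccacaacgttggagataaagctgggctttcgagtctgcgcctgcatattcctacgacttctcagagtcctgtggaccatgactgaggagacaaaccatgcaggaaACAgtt
Snora73b: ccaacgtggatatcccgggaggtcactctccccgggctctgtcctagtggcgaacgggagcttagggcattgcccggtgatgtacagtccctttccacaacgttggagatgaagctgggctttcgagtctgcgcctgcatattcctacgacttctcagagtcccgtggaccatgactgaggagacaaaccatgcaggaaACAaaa

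The D box was found in 54 of the 55 C/D members and the C box in 36, each searched on the strand of the RNA only. In promoter windows of 80 bases from RefSeq (GRCm38.p6), searched the same way, the D box was present in 11.1% and the C box in 0.472%. The ACA was found in 31 of the 33 H/ACA members and in 8.74% of promoter windows of 136 bases, and the H box, a loose pattern, in 29 members and 50.8% of windows. No ACA was matched in Snora44 and no H box in either Snora73 copy, which says only that these letters are not in the windows searched. Snord14c and Snord14d shared 97.7% of their bases in order (the longest common subsequence over the longer length), Snord14e shared 83.3% with either, and Snora73a and Snora73b shared 96.6%. Because such copies share long stretches, the split of reads between them is uncertain; 30 members share at least 1 word of 25 bases with another snoRNA gene, and 13 share over 50% of their words.

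Library totals ranged from 32204112 to 35971131 counts in non-CSC and from 27099879 to 28205651 in CSC. The 92 members together took 0.0446% to 0.059% of a library, and 66 of them had a mean count under 50, so most were measured with few reads. The abundant structural RNAs Rpph1, Rmrp, Rn7s1, Rn7s2 and Rn7sk together gave 32800, 39800 and 33500 CPM in the non-CSC libraries and 34200, 34700 and 32100 CPM in the CSC libraries, with non-CSC replicate 2 the highest. That library was also the highest for the sums of the H/ACA and Cajal body members below, and its part in these results was not tested beyond leaving it out.

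In CSC 24 members were higher, 5 were lower and 63 were not called, which is 31.5% called against 66.5% of all 17630 genes tested. Higher calls made up 24 of 92 members against a background of 33.4% of genes, and lower calls 5 of 92 against 33.1%. The members' log2 fold changes (CSC over non-CSC) had a median of 0.25, with 71 above 0 and 21 below, while the median over all genes tested was 0.01. The members' standard errors were larger, with a median of 0.234 against 0.0717 over all genes. In 36 members the CPM ranges of the groups did not overlap (32 higher and 4 lower in CSC), against 69.3% of all genes tested.

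Because so many members have few reads, they were set beside genes of like abundance. Among the 66 members with a mean count of 10 to 50, 18 were called higher, or 27.3%, and 0 lower, while genes in that range were called higher in 31.6% and lower in 13.0% of cases. The count of 0 lower calls held with edgeR at an unadjusted p under 0.05, with DESeq2 and with limma-voom, each of which also gave 0. The median log2 fold change was 0.33 for these members and 0.22 for the genes. Among the 19 members with 50 to 500 counts, 6 were higher and 4 lower, with background shares of 36.9% and 29.3%. Among the 7 members with 500 counts or more, 0 were higher and 1 was lower, with background shares of 31.6% and 45.4%; the 0 higher calls were again 0 by each of those other counts. In the ranges under 500 counts the share of members called higher thus lay near the background. DESeq2 called 12 members higher and 4 lower, all of them among the edgeR calls. The 12 higher calls it did not make were Snora21, Snora33, Snora34, Snora44, Snord4a, Snord12, Snord32a, Snord42a, Snord43, Snord47, Snord95 and Snord104, with adjusted p from 0.0505 (Snora21) to 0.175 (Snord32a) in DESeq2, and the lower call it did not make was Snora68.

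**Figure D1:**
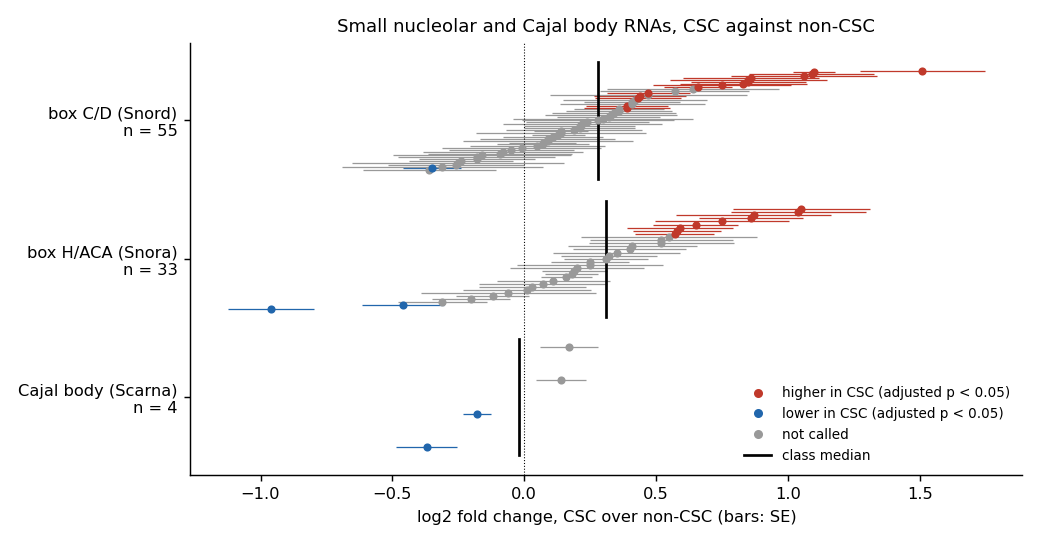
Log2 fold change of each of the 92 members (CSC over non-CSC, horizontal axis; bars are the standard error), grouped by class, with colour for members called at an adjusted p under 0.05 and a black line at the class median. Most box C/D and box H/ACA members lie to the right of 0, and the medians are 0.28, 0.31 and -0.02 for C/D, H/ACA and Cajal body RNAs.

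By class, 15 of 55 C/D members were higher and 1 was lower, 9 of 33 H/ACA members were higher and 2 were lower, and of the 4 Cajal body RNAs 0 were higher and 2 were lower. The Cajal body RNAs also had 0 higher at an unadjusted p under 0.05, with DESeq2 and with limma-voom. Over all genes tested 33.4% were called higher and 33.1% lower. Among genes with a mean count of 500 or more the shares were 31.6% and 45.4%. The 4 Cajal body RNAs are too few to set against these shares. The median log2 fold change was 0.28 in C/D, 0.31 in H/ACA and -0.02 in Cajal body RNAs. The difference between the classes was not tested. Outside the naming rule, 118 other RefSeq small nucleolar or guide RNA symbols reached 60 counts, and of the 114 that were tested 30 were higher and 1 was lower, with a median of 0.22.

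Summed over the class, C/D members gave 111, 139 and 136 CPM in the non-CSC libraries and 167, 148 and 154 CPM in the CSC libraries. These groups did not overlap, and the ratio of the means was 1.21. H/ACA members gave 142, 196 and 153 CPM against 174, 163 and 188 CPM, and Cajal body RNAs 205, 245 and 222 CPM against 240, 229 and 211 CPM, overlapping in each case (ratios 1.07 and 1.01). The 8 most abundant members held 77.5% of the members' counts and gave 351, 470 and 400 CPM in non-CSC and 448, 403 and 418 CPM in CSC, a ratio of 1.04. The other 84 gave 107, 109 and 112 CPM in non-CSC and 132, 137 and 134 CPM in CSC, a ratio of 1.23 without overlap. A higher level in CSC without overlap was therefore seen in the sum of the other 84 members and not in that of the 8 most abundant. The 8 are all the Cajal body RNAs with Snord17, Snora73a, Snora73b and Snora23. Their GENCODE lengths are 184 to 414 bases, beside medians of 80 for C/D and 136 for H/ACA members. Abundance, class and length cannot be told apart in this split. A single member, Snord11, is among the 84 and went from a mean of 6.42 to 13.8 CPM. The C/D sum also holds Snord17, one of the 8, which went from 66.1 to 76.4 CPM with overlapping groups. For comparison, all genes with a mean count of 10 to 50 had a median log2 fold change of 0.22.

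**Figure D2:**
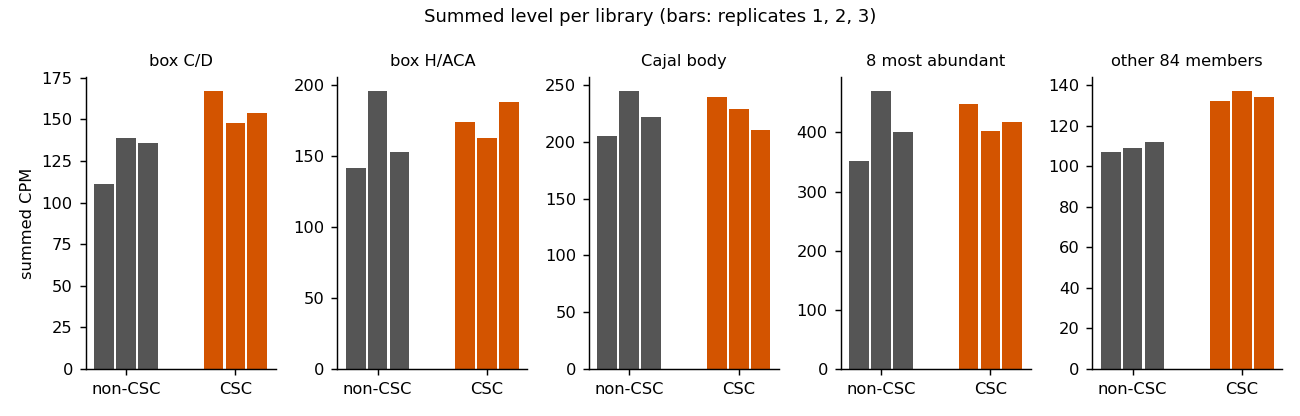
Summed CPM of each class, of the 8 most abundant members and of the other 84, with a bar for each library (replicates 1 to 3 of non-CSC in grey and of CSC in orange; each panel has its own axis from 0). The CSC bars stand above all non-CSC bars for box C/D RNAs and for the other 84 members, while the groups overlap in the remaining panels.

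Among box C/D RNAs, Snord11, which lies in an intron of Nop58, showed the clearest rise. It had 5.93, 7.01 and 6.34 CPM in the non-CSC libraries and 13.0, 14.6 and 13.8 CPM in the CSC libraries, and every CSC library stood well above every non-CSC library. Its log2 fold change was 1.10 (SE 0.0797, adjusted p = 2.64e-11), and per length it went from 102 to 219 RPKM, using the RefSeq length. No exon of another gene in GENCODE overlaps it and it shares no word of 25 bases with another snoRNA gene.

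The Snord14 copies in Hspa8 encode the U14 RNA, which takes part both in ribosomal RNA cleavage and in its methylation. Snord14e had 0.606, 0.317 and 0.481 CPM in non-CSC and 1.23, 1.45 and 1.31 CPM in CSC, and its log2 fold change of 1.51 (SE 0.236, adjusted p = 5.97e-06) was the largest rise of any member. Snord14d had 0.382, 0.461 and 0.566 CPM against 0.944, 1.03 and 1.07 CPM, with a log2 fold change of 1.09 (SE 0.238, adjusted p = 0.000326). Snord14c had 0.382, 0.577 and 0.594 CPM against 0.907, 0.990 and 0.896 CPM, with a log2 fold change of 0.83 (SE 0.241, adjusted p = 0.00434). For all 3 copies the groups did not overlap, but these are levels of 11 to 41 reads per library, and exons annotated to another gene cover each copy over its whole length. A further copy in another host, Snord14a in Rps13, named here after its value was seen, had 0.574, 0.577 and 0.651 CPM in non-CSC and 0.399, 0.530 and 0.758 CPM in CSC and was not called (log2 fold change -0.09, SE 0.273). That Snord14a differs from the copies in Hspa8 was not tested.

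Snord73b, in an intron of Rps3a1, had 0.574, 0.865 and 0.707 CPM in non-CSC and 1.23, 1.10 and 1.55 CPM in CSC (log2 fold change 0.85, SE 0.217, adjusted p = 0.00156), and all CSC libraries were above all non-CSC libraries. The remaining 10 C/D members called higher were Snord68, Snord47, Snord42a, Snord4a, Snord52, Snord12, Snord95, Snord43, Snord104 and Snord32a, with log2 fold changes from 0.39 to 1.06. Several of these calls were lost when a single library was left out. The weakest, Snord32a (adjusted p = 0.0404), had an adjusted p of 0.102 without non-CSC replicate 1, 0.18 without non-CSC replicate 3, 0.106 without CSC replicate 1 and 0.119 without CSC replicate 3. Snord104 (0.0332) reached 0.173 and 0.0696 without non-CSC replicates 1 and 2, and 0.128 and 0.069 without CSC replicates 1 and 3. Snord95 (0.0318) reached 0.165, 0.0603 and 0.136 without non-CSC replicate 1, CSC replicate 1 and CSC replicate 3, and Snord43 (0.0231) reached 0.0763 and 0.204 without non-CSC replicate 1 and CSC replicate 3. With no filter beyond 1 count the adjusted p was 0.0782 for Snord32a, 0.056 for Snord104 and 0.0552 for Snord95.

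The U8 RNA, Snord118, is needed for maturation of the large ribosomal subunit RNAs and, unlike most of its class, had no host gene here. It had 4.88, 6.26 and 5.52 CPM in the non-CSC libraries and 4.25, 4.91 and 3.93 CPM in the CSC libraries, and CSC replicate 2 lay just above the lowest non-CSC library. Its log2 fold change was -0.35 (SE 0.111, adjusted p = 0.00805). The adjusted p was 0.0627 without non-CSC replicate 2 and 0.0542 without CSC replicate 3.

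The most abundant C/D member was Snord17, with 51.2, 76.7 and 70.4 CPM in non-CSC and 88.8, 65.3 and 75.1 CPM in CSC, overlapping groups that were not called (log2 fold change 0.21, SE 0.211). Per length it stood at 299 RPKM in non-CSC and 346 RPKM in CSC, the highest of its class. Snord55 had 6.25, 5.30 and 5.15 CPM against 6.64, 6.22 and 5.48 CPM (log2 fold change 0.14, SE 0.101). Snord96a, in Rack1, had 5.16, 4.99 and 6.11 CPM against 5.48, 6.29 and 6.03 CPM (log2 fold change 0.13, SE 0.0997), and neither was called. Of the 4 most abundant C/D members Snord11 was thus the only one called. U3, the most studied C/D RNA of ribosomal RNA cleavage, is listed under the Rnu3 symbols outside the rule, and its 5 symbols summed to 368, 455 and 278 CPM in non-CSC and 198, 193 and 286 CPM in CSC. None of the 5 was called.

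**Figure D3:**
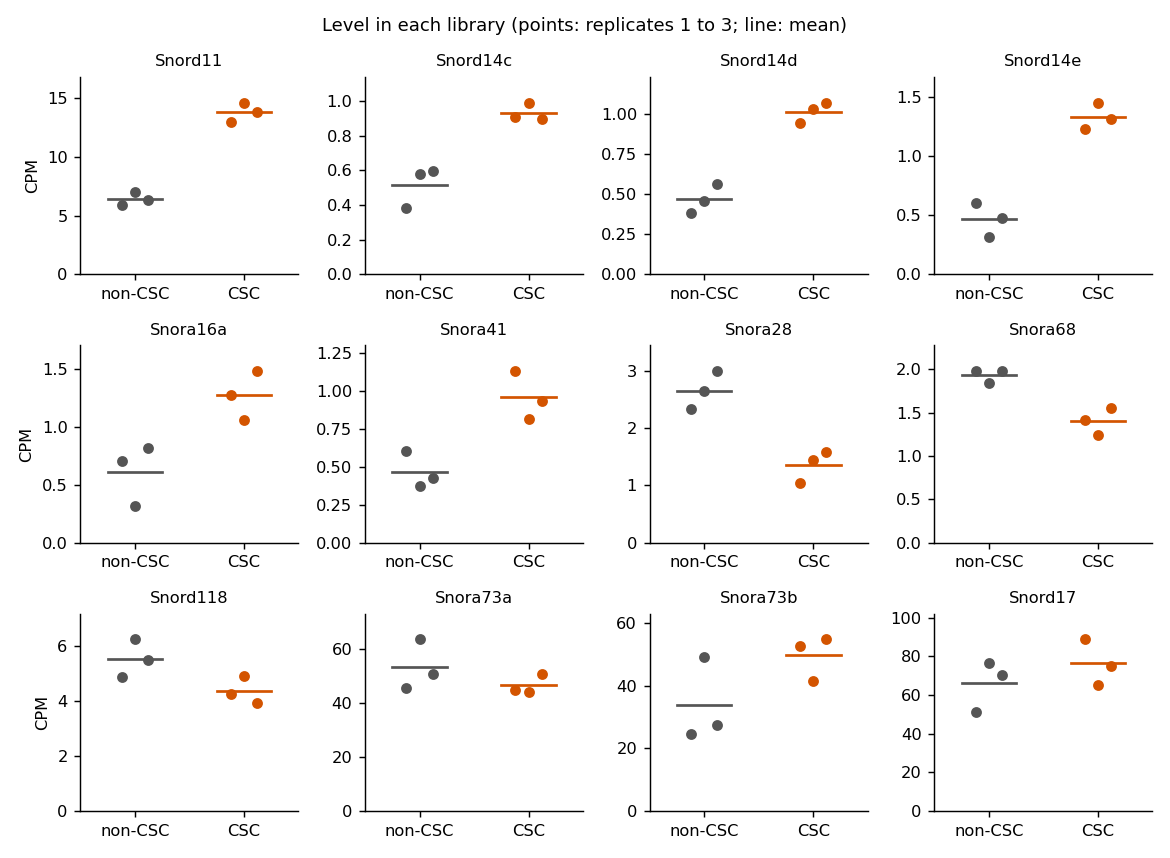
CPM of 12 members in each library (points are replicates 1 to 3, lines are group means; each panel has its own axis from 0). The groups stand apart for Snord11, the Snord14 copies, Snora16a, Snora41, Snora28 and Snora68, and overlap for Snord118, both Snora73 copies and Snord17.

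Among box H/ACA RNAs the lowest adjusted p belonged to a fall. Snora28, in an intron of Eif5, had 2.33, 2.65 and 3.00 CPM in the non-CSC libraries and 1.05, 1.45 and 1.59 CPM in the CSC libraries, with the groups apart. Its log2 fold change was -0.96 (SE 0.163, adjusted p = 1.69e-05). Snora68 had 1.98, 1.84 and 1.98 CPM against 1.42, 1.24 and 1.55 CPM, again without overlap (log2 fold change -0.46, SE 0.156, adjusted p = 0.0122). Its adjusted p was 0.0618 without CSC replicate 2 and 0.0885 with DESeq2. Exons annotated to another gene cover Snora28 over its whole length.

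The 9 H/ACA members called higher ranged in log2 fold change from 0.57 to 1.05. Snora16a, in Snhg12, had 0.701, 0.317 and 0.821 CPM in non-CSC and 1.27, 1.06 and 1.48 CPM in CSC (log2 fold change 1.05, SE 0.260, adjusted p = 0.00122). Snora41, in the translation elongation factor gene Eef1b2, had 0.606, 0.375 and 0.424 CPM against 1.13, 0.813 and 0.931 CPM (log2 fold change 1.04, SE 0.255, adjusted p = 0.00107). In both, every CSC library was above every non-CSC library, at 11 to 43 reads. Snora57 had 0.637, 0.807 and 0.736 CPM against 1.38, 1.27 and 1.34 CPM (log2 fold change 0.86, SE 0.197, adjusted p = 0.000522).

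Snora78, in Snhg9, had 1.34, 1.12 and 1.27 CPM in non-CSC and 1.96, 1.77 and 2.14 CPM in CSC (log2 fold change 0.65, SE 0.161, adjusted p = 0.00108). Snora34, in Kansl2, had 0.861, 0.807 and 0.679 CPM against 1.16, 1.27 and 1.10 CPM (log2 fold change 0.59, SE 0.202, adjusted p = 0.0129). The groups were apart in both. The call of Snora34 was lost without non-CSC replicate 3 (adjusted p = 0.0634), without CSC replicate 2 (adjusted p = 0.0518) and with DESeq2 (adjusted p = 0.0999). The other H/ACA members called higher were Snora44, Snora33, Snora21 and Snora17, and the call of Snora33 was lost without CSC replicate 2 (adjusted p = 0.0652) and with DESeq2 (adjusted p = 0.0939), and that of Snora21 with DESeq2 (adjusted p = 0.0505).

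The abundant H/ACA members were not called, and a single library moved several of them. Snora73a and Snora73b encode the U17 RNA, which acts in early cleavage of the ribosomal RNA precursor and not as a modification guide. Snora73b had 24.6, 49.4 and 27.4 CPM in non-CSC and 52.8, 41.6 and 54.9 CPM in CSC, with non-CSC replicate 2 inside the CSC range (log2 fold change 0.55, SE 0.333, adjusted p = 0.217). Without non-CSC replicate 2 the log2 fold change was 0.93 with an adjusted p of 0.00154, and with the robust setting off Snora73b was also called (adjusted p = 0.00871). Snora73a had 45.8, 63.7 and 50.9 CPM against 44.8, 44.3 and 50.7 CPM, with non-CSC replicate 2 again the highest (log2 fold change -0.20, SE 0.148, adjusted p = 0.299). The copies share 96.6% of their bases, so the split of reads between them is uncertain, and with it the change of either copy alone.

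Snora23, in the importin gene Ipo7, had 24.5, 35.7 and 28.7 CPM in non-CSC and 22.1, 23.1 and 26.7 CPM in CSC (log2 fold change -0.31, SE 0.169, adjusted p = 0.175). It was called lower without non-CSC replicate 1 (log2 fold change -0.43, adjusted p = 0.0103) and with the robust setting off (adjusted p = 0.013). Snora74a, in Snhg4, had 8.29, 9.57 and 9.90 CPM against 10.6, 8.77 and 11.8 CPM (log2 fold change 0.16, SE 0.0960), and was called higher without CSC replicate 2 (log2 fold change 0.27, adjusted p = 0.0151) and with library-size scaling (adjusted p = 0.0463). The groups overlapped in both.

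The 4 Cajal body RNAs were all abundant, with mean counts from 484 to 2420. Scarna6, which carries features of both families, had 74.5, 84.4 and 72.0 CPM in the non-CSC libraries and 70.1, 69.0 and 64.8 CPM in the CSC libraries. The groups were apart by a narrow margin (log2 fold change -0.18, SE 0.0530, adjusted p = 0.00588). The adjusted p was 0.0556 without non-CSC replicate 2, 0.0528 with upper-quartile scaling and 0.0557 with plain library-size scaling. Scarna13 had 15.4, 20.3 and 16.3 CPM against 15.3, 12.5 and 12.5 CPM (log2 fold change -0.37, SE 0.117, adjusted p = 0.0176), and its adjusted p was 0.0702 without CSC replicate 2 and 0.0531 without CSC replicate 3.

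Scarna2, which guides modification of the spliceosomal U2 RNA, had 65.1, 84.7 and 71.3 CPM in non-CSC and 88.1, 83.6 and 77.6 CPM in CSC. It was not called (log2 fold change 0.17, SE 0.109, adjusted p = 0.22), but was called higher without non-CSC replicate 2 (log2 fold change 0.28, adjusted p = 0.000244), with the robust setting off (adjusted p = 0.0422) and with no filter beyond 1 count (adjusted p = 0.0254). Scarna10 had 50.4, 55.4 and 62.7 CPM against 66.2, 64.0 and 55.8 CPM (log2 fold change 0.14, SE 0.0937), and was called higher without non-CSC replicate 3 (adjusted p = 0.0105) and without CSC replicate 3 (adjusted p = 0.0238), and with no filter beyond 1 count (adjusted p = 0.0405). RefSeq and GENCODE give different lengths for Scarna2 (61 and 414 bases) and Scarna10 (71 and 325 bases), so their levels per length are not compared with the others. Scarna6 stood at 310 RPKM in non-CSC and 274 RPKM in CSC, near the level of Snord17.

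A host gene was found for 89 of the 92 members, 84 on the same strand in GENCODE and 5 from the span in RefSeq, and Scarna2, Snord118 and Snord13 had none. The 65 hosts were 49 protein-coding genes, 22 of them for ribosomal proteins, and 16 long noncoding RNA genes. Of the hosts, 25 were higher in CSC, 24 were lower and 16 were not called, with a median log2 fold change of 0.02. The members lay above their host in log2 fold change in 64 pairs and below it in 25, with a median difference of 0.29. Most members had a mean count of 10 to 50, while most hosts had 500 or more. Over all genes tested the median log2 fold change was 0.22 in the first range and -0.07 in the second. The part of abundance in the difference between members and hosts was not tested. Over the 89 pairs Pearson's r between member and host log2 fold change was 0.18, as a description, since both come from the same libraries and some pairs share a host.

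Of the 24 members called higher, 13 had a host called higher, 8 a host called lower and 3 a host not called. Among the 5 members called lower, Snora28 and Scarna13 had a host that was also lower, Scarna6 had a host that was higher and Snord118 had no host. In 36 pairs the log2 ratio of member to host counts did not overlap between the groups, higher in CSC in 33 and lower in 3, among them Scarna6 and Snord33. Of the 33 pairs, 25 had a host called lower, 5 a host called higher and 3 a host not called. For single genes, the CPM ranges did not overlap in 69.3% of all genes tested, and no such share was computed for ratios. With 3 libraries against 3, an exact two-sided permutation test of a member to host ratio cannot go below p = 0.1, which is the value for each of the 36 pairs.

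The 35 members in hosts called lower had a median log2 fold change of 0.25, while their hosts had a median of -0.36. The 35 members in hosts called higher had a median of 0.39 and their hosts 0.27, and the 19 in hosts not called had a median of 0.14. The ratio to the host contains the host's own change, so it moves wherever the host moves and the member does not.

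**Figure D4:**
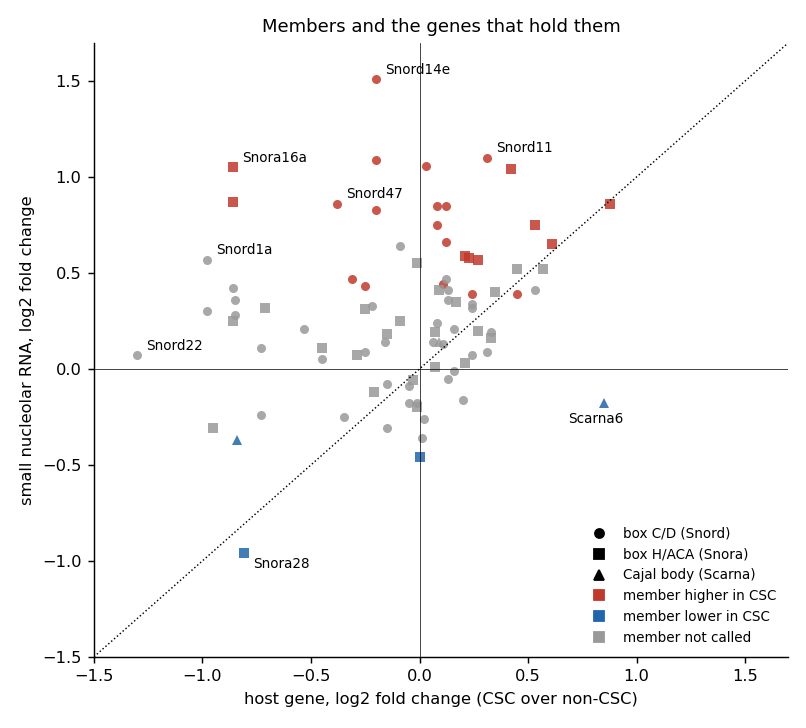
Log2 fold change of 89 members (vertical axis) against that of the host gene (horizontal axis), with shape for class, colour for the member's call and a dotted line where both are equal. Points above the line number 64, with Snora16a and Snord14e far above it, and Scarna6 lies below.

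Snhg12, a noncoding host with 4 members, fell from 17.9, 18.7 and 16.8 CPM in non-CSC to 8.78, 10.4 and 10.3 CPM in CSC (log2 fold change -0.86, SE 0.0728, adjusted p = 4.24e-10). Its member Snora16a rose by the 1.05 given above. Snora44 had 0.478, 0.346 and 0.283 CPM in non-CSC and 0.508, 0.742 and 0.758 CPM in CSC (log2 fold change 0.87, SE 0.294, adjusted p = 0.0121), a call lost without non-CSC replicate 3 (adjusted p = 0.0661), without CSC replicate 3 (adjusted p = 0.0563) and with DESeq2 (adjusted p = 0.0854). Snora61 had 0.478, 0.577 and 0.396 CPM against 0.544, 0.495 and 0.689 CPM, and Snord99 0.351, 0.605 and 0.509 CPM against 0.581, 0.778 and 0.620 CPM, neither of them called (log2 fold changes 0.25 and 0.42). For each of the 4 the ratio to Snhg12 was higher in every CSC library than in every non-CSC library, with log2 differences of 1.99, 1.71, 1.12 and 1.31 (exact permutation p = 0.1 each). Exons annotated to another gene cover all 4 over their whole length.

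Other noncoding hosts fell as well. Snhg1 had the largest fall among the hosts, from 76.6, 72.4 and 82.6 CPM to 31.2, 33.0 and 29.6 CPM (log2 fold change -1.30, SE 0.0534, adjusted p = 1.87e-15), while its member Snord22 had 2.87, 3.14 and 3.90 CPM in non-CSC and 3.74, 3.36 and 3.34 CPM in CSC (log2 fold change 0.07, not called). Snhg16 fell by 0.98 on the log2 scale (adjusted p = 1.54e-12), while Snord1a and Snord1b within it had log2 fold changes of 0.57 and 0.30 and were not called. The following pairs were chosen after their values were seen. Snord47 in Gas5 was called higher (0.446, 0.375 and 0.424 CPM against 0.690, 0.778 and 0.793 CPM, log2 fold change 0.86) where Gas5 was called lower (-0.38), and Snord12 in Zfas1 was higher (0.47) where Zfas1 was lower (-0.31). DESeq2 called neither member (adjusted p = 0.0626 for Snord47 and 0.093 for Snord12).

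Over the 16 noncoding hosts, 7 were higher and 8 lower, and of their 23 members 9 were higher and 1 was lower, with medians of -0.16 for the hosts and 0.42 for the members. Over the 49 protein-coding hosts, 18 were higher and 16 lower, and of their 66 members 15 were higher and 3 were lower, with medians of 0.03 and 0.19. The ratio of member to host was higher in CSC without overlap in 13 of 23 pairs with noncoding hosts and in 20 of 66 with protein-coding hosts. The background over all genes tested is 33.4% called higher and 33.1% called lower. The difference between these kinds of host was not tested.

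Hspa8, the constitutive heat shock protein that holds the Snord14 copies, fell slightly, from 1380, 1420 and 1370 CPM to 1240, 1190 and 1200 CPM (log2 fold change -0.20, SE 0.0333, adjusted p = 1.22e-05), opposite to all 3 copies. The log2 ratio to Hspa8 was higher in CSC by 1.06 for Snord14c, 1.31 for Snord14d and 1.73 for Snord14e. Nop58, itself a core C/D protein, rose from 107, 113 and 107 CPM to 133, 136 and 134 CPM (log2 fold change 0.31, SE 0.0365), less than its member Snord11. Snord70, also in Nop58, had 0.574, 0.288 and 0.481 CPM in non-CSC and 0.399, 0.636 and 0.379 CPM in CSC (log2 fold change 0.09, not called). Members of the same host therefore had different log2 fold changes, though the SE of 0.322 for Snord70 is wide.

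Rpl13a held 4 C/D members and rose by 0.24 on the log2 scale (SE 0.0365, adjusted p = 3.28e-06). Snord32a was called higher at 0.39, while Snord33, Snord34 and Snord35a had log2 fold changes of 0.07, 0.32 and 0.34 and were not called. Rpl23a was not called (log2 fold change 0.08), and of its 3 members Snord42a (0.85) and Snord4a (0.75) were called higher while Snord42b (0.24) was not. The call of Snord42a was lost without non-CSC replicate 2 (adjusted p = 0.0573) and without CSC replicate 2 (adjusted p = 0.0868). The call of Snord4a was lost without the same libraries (adjusted p = 0.0819 and 0.116), and DESeq2 called neither (adjusted p = 0.109 and 0.084).

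Other pairs showed the member and the host falling or moving apart. Snora28 and Eif5, an initiation factor gene, both fell, Eif5 from 386, 415 and 436 CPM to 230, 235 and 241 CPM (log2 fold change -0.81, SE 0.0410), and their ratio overlapped between the groups. Atg16l1, an autophagy gene, rose from 34.8, 35.7 and 34.0 CPM to 64.9, 62.4 and 61.2 CPM (log2 fold change 0.85, SE 0.0452) while Scarna6 within it fell, so that Scarna6 went from 221 to 108 counts per 100 counts of Atg16l1. Snx5 fell by 0.53 on the log2 scale, while Snord17 within it was not called. By contrast Snora57 and its noncoding host 5730408K05Rik rose by nearly the same amount (0.86 and 0.88), as did Snora78 and Snhg9 (0.65 and 0.61). Snora57 had 93.7 counts per 100 host counts in non-CSC and Snora78 had 118. Snord104, called higher with a host called higher, had 98.8, and Snora74a had 104. Whether the same reads were counted for member and host cannot be told apart in any of these pairs.

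**Figure D5:**
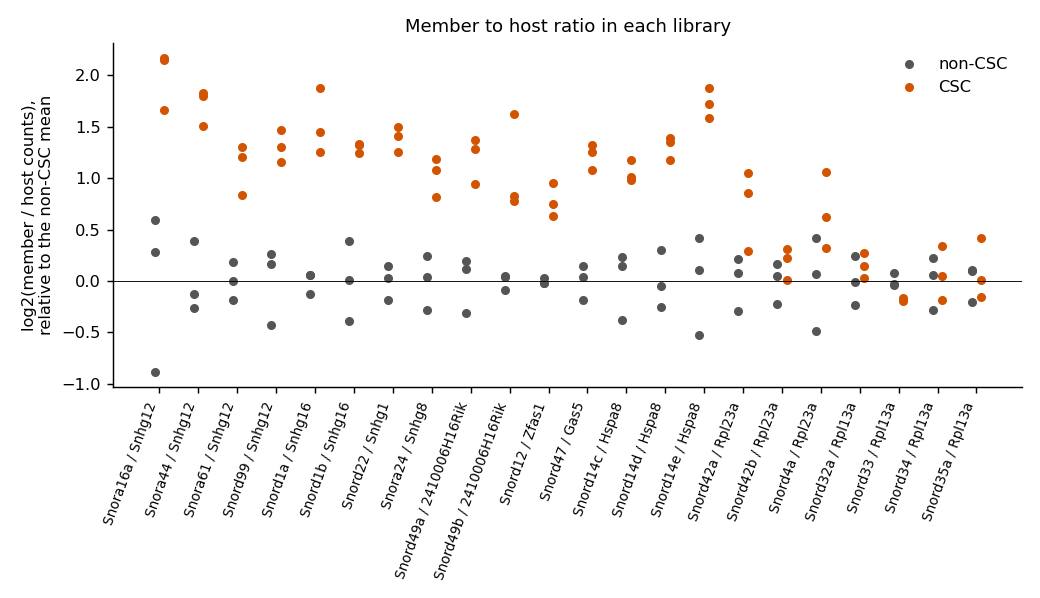
Log2 ratio of member to host counts (with 0.5 added to each count) in each library, relative to the non-CSC mean, for members of chosen hosts. These are the hosts with 3 or more members and the noncoding hosts called lower, except Snhg10. The ratio contains the fall by which those noncoding hosts were chosen, so it rises wherever the member does not fall as well. Several of their members were not called themselves, among them Snord22, Snord1a and Snord1b. The ratio of Scarna13 to Snhg10 overlapped between the groups. Other hosts named in the text are not shown, among them Atg16l1, where the ratio of Scarna6 was lower in CSC. CSC points (orange) lie above all non-CSC points (grey) for members of Snhg12, Snhg16, Snhg1, Snhg8, 2410006H16Rik, Zfas1, Gas5 and Hspa8, and overlap or cross them for most members of Rpl23a and Rpl13a.

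In GENCODE M21 an exon of another gene, which can be a longer form of the host, overlaps 54 members, 44 of them over their whole length. Whether the reads counted there came from the small RNA or the longer transcript cannot be told apart in a gene count table. Of the 38 members with no such overlap, 10 were higher and 2 lower, and of the 54 with overlap 14 were higher and 3 lower. Exons that only RefSeq gives were not searched. Snora57, Snord104 and Snora78, all called higher, are in the set without overlap though their counts were near those of their hosts. That set may therefore still hold members that share reads with a longer transcript. The median log2 fold change was 0.25 in both sets. The median change of the log2 ratio to the host was 0.29 over all pairs and 0.15 over pairs whose member has no such overlap.

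The core proteins of the particles moved in both directions. Of the C/D proteins, the methyltransferase fibrillarin (Fbl) fell from a mean of 102 to 82.4 CPM (log2 fold change -0.31, SE 0.0397, adjusted p = 4.17e-07) and Nop58 rose, while Nop56 (-0.01) and Snu13 (0.02) were not called. Of the H/ACA proteins, Dkc1, the pseudouridine synthase dyskerin, rose by 0.16 (adjusted p = 0.00144) and Nop10 by 0.20 (adjusted p = 0.00193). Gar1 fell from 32.7 to 20.2 CPM (log2 fold change -0.69, SE 0.0594, adjusted p = 4.68e-10), and Nhp2 (0.06) was not called.

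For the lists that follow, the background is 33.1% of all genes tested called lower and 33.4% higher, and 45.4% and 31.6% among those whose mean count is at least 500. Of 12 factors that assemble these particles 10 were lower and 1 was higher, and their median log2 fold change was -0.34. Among them 10 had 500 counts or more, and 9 of these were lower. The largest falls were Ruvbl2 (-0.63, SE 0.0420), an ATPase of the assembly complex, Nufip1 (-0.59, SE 0.0540) and Znhit6 (-0.55, SE 0.0680). Genes of snoRNA processing and transport were mixed, with 4 of 12 higher and 5 lower, among them the exosome subunits Exosc9 (-0.52) and Exosc3 (-0.41) and the polymerase Tent4b (-0.36). The lariat debranching enzyme Dbr1 was higher (0.28). Of 6 Cajal body protein genes 4 were lower and 1 higher, with Gemin2 falling from 17.1 to 8.57 CPM, Smn1 at -0.40 and coilin (Coil), the scaffold of the body, at 0.47.

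Of 24 genes of nucleolar ribosomal RNA synthesis and processing 8 were higher and 8 lower, with Taf1b at -1.42, Bop1 at 0.45 and Wdr12 at 0.43. Of 10 genes of nonsense-mediated decay, which degrades many noncoding host transcripts, 5 were lower and 1 higher, with Upf1 at -0.49, Smg5 at -0.41 and Smg9 at -0.39. The background for all 10 is 33.1% lower. Among them 8 had 500 counts or more, and 5 of these were lower, beside the background of 45.4% lower in that range. Among 19 tested genes of the noncoding snoRNA host family 11 were lower and 4 higher, with a median of -0.31. Of 7 other structural small RNAs tested, Terc, the telomerase RNA, which has an H/ACA domain, was higher (30.5 to 48.1 CPM, log2 fold change 0.65), and so was Rn7sk (0.43), and the remaining 5 were not called.

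Epithelial markers were present, Krt8 at a mean of 715 CPM in non-CSC and 863 CPM in CSC, Krt18 at 1250 and 1270 CPM and Krt19 at 657 and 734 CPM, while Cdh1 was under 1 CPM in both groups. Of the 6 epithelial markers 3 were higher in CSC (Krt8, Krt19 and Cldn7, the last at 0.222 and 0.424 CPM). The 1 called lower was Epcam, from 21.3 to 10.3 CPM (log2 fold change -1.05, adjusted p = 7.38e-13). Of 7 stem cell markers tested 3 were higher in CSC (Cd44, Aldh1a1 and Lgr5) and 4 lower (Itga6, Itgb1, Procr and Sox9), and Kit was at 0. Of 8 immune markers 3 were tested, Csf1r (mean 1.85 CPM in non-CSC and 8.06 CPM in CSC) and Itgam (0.741 and 10.2 CPM) being higher and Cd68 (25.4 and 17.8 CPM) lower. Cd3e and Adgre1 were at 0, and the 8 had a summed level of 27.1 to 29.2 CPM in non-CSC and 35.6 to 36.7 CPM in CSC. The 6 fibroblast markers summed to 555 to 589 CPM in non-CSC and 1200 to 1240 CPM in CSC, nearly all Dcn, with 3 of 3 tested higher and Lum at 0. The 4 endothelial markers stayed under 1 CPM in sum with Tek at 0, and the 5 red blood cell markers summed to 1.05 to 1.40 CPM and 1.92 to 2.07 CPM with Hbb-bt at 0. The part of these genes in the results above was not tested.

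Near the threshold of 60 counts, the members just inside were Snord19 with 62 counts in all, Snord1b with 63 and Snord73a with 67. The symbols just outside were Scarna9 with 54, Snord57 with 55 and Snord35b with 56.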

How the data were processed

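RNA-seq of 6 EO771 libraries was analysed, 3 CSC and 3 non-CSC, grouped by their titles. The authors deposited unnormalized read counts per gene symbol, and the submitters' processing notes name the GRCm38 build. Per the labels' protocols, Trizol RNA went into NEBNext Ultra II libraries. No label or header names the aligner, annotation, strand setting or any selection of RNA by kind or size, so reads of a member and of an overlapping or antisense transcript cannot be told apart.

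Counts were filtered with filterByExpr, scaled with TMM and fitted over all genes with edgeR 4.0.16 (quasi-likelihood, robust) in R 4.3.3, and p-values were adjusted by Benjamini-Hochberg over all 17630 tested genes. All 92 members passed the filter. DESeq2 1.42.0, limma-voom (limma 3.58.1), other scalings and filters, a replicate block and leaving out each library were alternatives. The fit was also run on simulated counts. Far fewer genes were changed there than were called in these data, so that run does not test the fit at such a share. Hosts are the smallest gene in the table that contains the member. Member to host ratios use log2 of counts plus 0.5. RPKM uses RefSeq lengths (GRCm38.p6), which for 63 members are shorter than GENCODE's. Reads carry no molecular identifiers, so amplified copies may be counted more than once.

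Members, gene lists and tests were chosen with earlier results of these data known. Named genes are, per class, the 4 highest by mean CPM and up to 5 largest called rises and 5 largest called falls with a mean count of at least 20, the hosts of these, hosts with 3 or more members, core proteins, up to 3 largest called changes of each other list, and the symbols nearest the threshold. Others are named as lists of calls. The host genes of some members are not reported here.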

Additional observations from a re-analysis of the deposited data

How the results depend on the processing

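The 24 higher and 5 lower calls were recomputed under each alternative. Higher calls numbered 12 with DESeq2 and 6 when a mean of at least 50 counts was required, which left 26 members tested. Leaving out each library in turn gave 21 to 23 higher and 3 to 6 lower calls, with 3 lower calls without non-CSC replicate 2, CSC replicate 2 or CSC replicate 3. Of the higher calls without 1 library, 19 to 21 were among the original 24. Other scalings and filters, limma-voom and the setting without robust estimation gave 23 to 29 higher and 4 to 6 lower calls. The replicate block gave 23 higher and 6 lower calls. It called Snora23 lower (log2 fold change -0.30, adjusted p = 0.042) and did not call Snord32a (adjusted p = 0.0547). Deviations of same-numbered libraries correlated at -0.026 to -0.011, and those of the other pairs of libraries at 0.002 to 0.019. Neither these values nor the labels can tell whether same-numbered samples came from the same culture. Of 636 values of single members under an alternative, 576 kept their direction and side of the threshold, 47 lost the call, 13 gained it and none reversed. These values cover 44 members and not the whole set. The ratio of summed levels ranged from 1.14 to 1.27 for C/D, 1.00 to 1.19 for H/ACA and 0.953 to 1.06 for Cajal body RNAs over all alternatives. The median change of the member to host ratio was 0.23 to 0.38 without 1 library and 0.15 over members that no other exon in GENCODE overlaps. Depth limits the members, since 66 averaged under 50 counts.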
